A study of Homo sapiens with 10 samples.

Results

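The response of human pluripotent stem cells to 18 h of the ligand WNT3A was measured by RNA sequencing, by setting 2 libraries of treated cells against 2 libraries of untreated cells, 4 of the 10 libraries in the study. The cells were wild type ESI017, a human embryonic stem cell line, plated 24 h before treatment at equal density in 12-well plates. Untreated cells were kept in mTeSR1, a defined medium for pluripotent cells, and treated cells received WNT3A at 300 ng/ml for 18 h. Each group has 1 library from each of 2 biological repeats, and the repeat paired the libraries. The labels give no collection time for the mTeSR1 cells and list no carrier control, so time in culture and WNT3A cannot be told apart here. The other groups drawn on below are cells given the same WNT3A dose for 6 h (1 library per repeat) and cells given 8 µM CHIR99021, an inhibitor of the kinase GSK3, for 18 h (2 libraries, both from repeat 2). Cells given 8 µM CHIR99021 for 6 h (1 library per repeat) also entered the fit of all 10 libraries. All libraries come from 1 cell line, and bulk RNA cannot tell a change in the share of responding cells from a change in RNA per cell.

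In canonical WNT signalling, a WNT ligand binds a Frizzled receptor and an LRP co-receptor at the cell surface. This stops the destruction complex of AXIN, APC and GSK3 from marking β-catenin for degradation, and β-catenin then joins TCF and LEF factors at target genes. Many of the targets restrain the pathway again. In the early embryo the pathway is needed to form the primitive streak, the structure through which mesoderm and endoderm leave the pluripotent epiblast, and in cultured pluripotent cells it induces streak genes.

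TCF and LEF factors bind a short core sequence, and the promoters below were chosen to show such matches. They were picked for holding one, and most changed genes with a promoter in the table have none in this window. RefSeq promoters (GRCh38.p14) were searched over the 250 bases upstream of the start for CTTTGAA and for its forms ending in AT, TA or TT, on both strands. Capitals mark each match, and a match that ends in CAAAG is the same core read on the other strand. SP5 and SP8, transcription factor genes that rose, have 3 and 2 matches. MIXL1, a streak homeobox gene, and HOXB1, an early HOX gene, rose and have 1 each. FOXD3, a forkhead gene that fell, also has 1.
SP5 (chr2:170715087-170715336, plus strand): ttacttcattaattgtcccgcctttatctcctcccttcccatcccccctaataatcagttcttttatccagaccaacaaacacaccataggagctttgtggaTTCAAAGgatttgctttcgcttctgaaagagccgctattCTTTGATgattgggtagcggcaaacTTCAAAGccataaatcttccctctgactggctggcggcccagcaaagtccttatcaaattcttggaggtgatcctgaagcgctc
SP8 (chr7:20786887-20787136, minus strand): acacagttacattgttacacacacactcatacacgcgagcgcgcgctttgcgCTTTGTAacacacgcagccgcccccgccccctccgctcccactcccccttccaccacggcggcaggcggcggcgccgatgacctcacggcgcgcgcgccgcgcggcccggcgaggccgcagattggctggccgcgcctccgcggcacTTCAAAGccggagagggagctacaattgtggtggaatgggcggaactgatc
MIXL1 (chr1:226223414-226223663, plus strand): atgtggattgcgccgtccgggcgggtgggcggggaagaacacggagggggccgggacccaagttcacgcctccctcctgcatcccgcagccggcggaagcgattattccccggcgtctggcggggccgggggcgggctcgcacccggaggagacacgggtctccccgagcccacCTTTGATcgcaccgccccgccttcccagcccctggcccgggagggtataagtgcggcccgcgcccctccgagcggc
HOXB1 (chr17:48531012-48531261, minus strand): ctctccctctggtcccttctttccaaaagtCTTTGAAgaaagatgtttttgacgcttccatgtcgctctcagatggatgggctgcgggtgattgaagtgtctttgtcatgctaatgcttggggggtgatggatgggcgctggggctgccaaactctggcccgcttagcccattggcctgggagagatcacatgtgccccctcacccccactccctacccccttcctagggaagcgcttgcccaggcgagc
FOXD3 (chr1:63322317-63322566, plus strand): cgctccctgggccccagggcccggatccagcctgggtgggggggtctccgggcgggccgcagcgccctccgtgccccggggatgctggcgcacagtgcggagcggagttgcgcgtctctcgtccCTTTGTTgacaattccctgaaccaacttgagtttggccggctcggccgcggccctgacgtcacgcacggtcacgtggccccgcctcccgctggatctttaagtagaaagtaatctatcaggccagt

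In SP5 the first bases of the matches lie 148, 109 and 84 bases upstream of the start, and in SP8 they lie 198 and 51 bases upstream. Among the promoters of genes that rose, 28 of 231 (12.1%) held a match, against 849 of 11309 (7.51%) of the promoters of all tested genes and 12.1% of all 27305 promoters in the table. Of the genes on the lists or among the largest changes, 7 of 53 that rose and 3 of 59 that fell held a match, and EOMES, SEMA3C, GAD1, WNT5B, GBX2, LEF1 and WLS, which rose more than SP8, held none. Among genes that fell the count was 16 of 315 (5.08%). With 2 or more matches there were 3 genes that rose (1.3%), SP5, SP8 and ABHD17B, and 0 that fell. The share was 0.433% among the promoters of tested genes and 1.22% among all promoters in the table. ABHD17B was singled out after its values were seen. A match in these letters is a description and not a measured binding site, and AXIN2 has no entry in the table. The promoter of NODAL, a streak gene with a large rise, held no match in this window. The T-box core (AGGTGTGA, AGGTGTCA, AGGTGTTA or AGGTGTAA on either strand) was found in 0.866% of the promoters of genes that rose, 1.9% of those that fell, 1.57% of those of tested genes and 2.2% of all promoters.

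Library totals were 1.89e+07 and 1.81e+07 estimated counts in mTeSR1 and 2.09e+07 and 1.73e+07 after WNT3A. Levels are given as CPM, the counts of a gene in 1e+06 counts after trimmed-mean scaling, with repeat 1 first and repeat 2 second. On this scale 3 counts are 0.164 CPM in mTeSR1 and 0.157 CPM after WNT3A. A gene is said to have risen or fallen where its Benjamini-Hochberg adjusted p (FDR) in edgeR's quasi-likelihood test was under 0.05, in a fit with the biological repeat as a block. The mTeSR1 library of repeat 2 had the highest mitochondrial share of the 10 libraries, 6.73% of counts, against 3.94% in the mTeSR1 library of repeat 1. It also differed in how level related to transcript length. For each gene the deviation of its log2 level from its mean over all 10 libraries was taken. Across genes, that deviation and the length of the longest transcript had a Spearman correlation of 0.349 in the mTeSR1 library of repeat 2. It was -0.182 in the mTeSR1 library of repeat 1 and -0.162 and -0.293 in the WNT3A libraries. The change with WNT3A followed transcript length in repeat 2 (Spearman -0.375 across genes) and hardly in repeat 1 (0.026). The counts of the leading lists are therefore also given with an offset for length and without that library. Whether this difference had a part in the changes was not tested beyond those refits.

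Of 15251 genes tested, 751 changed (4.92%), of which 315 rose (2.07%) and 436 fell (2.86%). The median log2 change was 1.57 among those that rose and -1.28 among those that fell, against 0.02 over all tested genes. Large changes were mostly rises, with 63 rises and 24 falls of at least 3 on the log2 scale. Among the genes that rose 53 were under 1 CPM in mTeSR1, and the filter on low counts let such genes in through groups where they were higher. A gene that fell had to start from a measured level, so the 1 such gene among the falls is no contrast. The direction was the same in both repeats for 749 of the 751 genes, against 59.9% of all tested genes. The 2 others, SIX3 and AC008878.3, were at 0 counts in both libraries of a repeat. The call itself favours genes that move alike in both repeats, so this agreement is not separate support. The median rise was 1.59 in repeat 1 and 1.53 in repeat 2, and the median fall was -1.11 and -1.36. Both WNT3A libraries lay above both mTeSR1 libraries in 21.8% of all tested genes and below both in 21.3%. Groups that do not overlap, where given below, are to be read beside these shares. The call count rested on the block and on each of the 4 compared libraries. Without the block 320 genes passed, of which 319 were among the 751. With the length offset 1151 passed, of which 718 were shared. All 10 libraries shared 1 estimate of spread, and without the CHIR99021 18 h libraries 799 passed, of which 673 were shared. In that fit the FDR was 0.00012 for MIXL1, 0.00027 for EOMES and 0.00021 for LEF1. In the main fit it was 0.039, 0.0095 and 0.031. Leaving out the mTeSR1 library of repeat 2 left 80 genes, that of repeat 1 left 114, and leaving out the WNT3A library of repeat 1 or 2 left 358 or 197. EOMES, MIXL1, LEF1, GAD1, GBX2, WNT5B, WLS, TMEM132C and TTC29, among the largest rises, were not called when any of these 4 libraries was left out. Of the 166 changed genes named below or on their lists, 21 passed under every one of 14 alternatives. These are SP5, SP8, SEMA3C, FOXB1, FST, ALK, EFNB2, PDK1, KLF5 and NKX1-2, which rose, and SHISA2, HESX1, SORBS2, FOXD3, SEZ6, SFRP1, PDE3A, CPLX2, SEMA4A, IDO1 and MMP24, which fell.

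**Figure D1:**
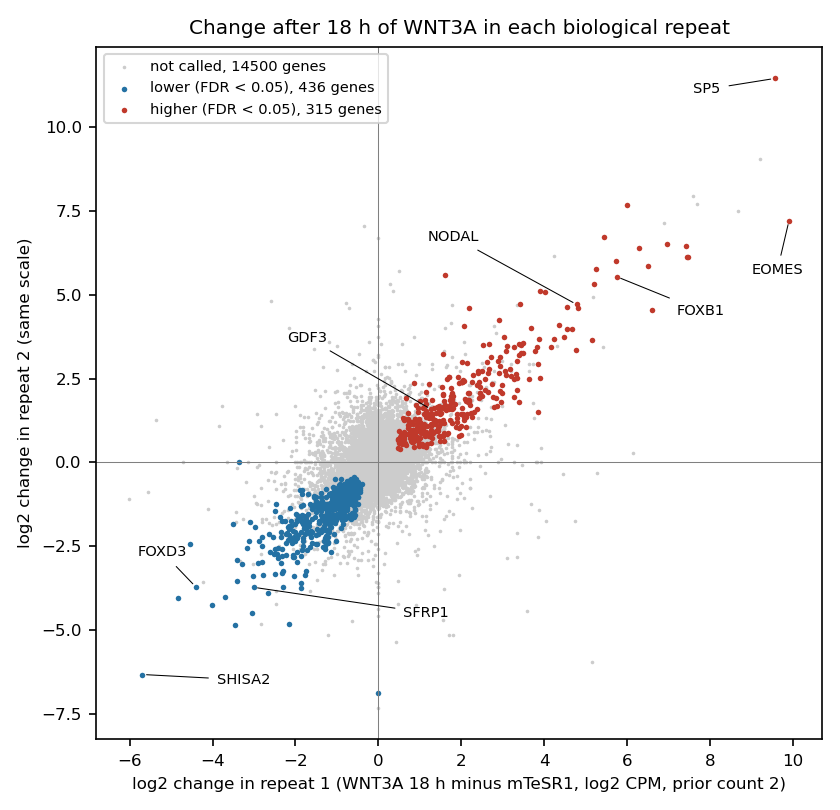
Log2 change of each tested gene with WNT3A for 18 h against mTeSR1 in repeat 1 (x axis) and repeat 2 (y axis), as log2 CPM with a prior count of 2. Genes that rose are red, genes that fell are blue and the others grey. The coloured points lie in the upper right and lower left. Of them 749 of 751 moved the same way in both repeats, which the call itself favours, beside 59.9% of all tested genes.

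Of 17 tested feedback and direct target genes of the pathway, 10 rose, 0 fell and 7 did not pass, beside 2.07% and 2.86% of all tested genes, and the list's median log2 change was 2.71. SP5, a zinc finger factor gene (ENSG00000204335, GRCh38 chromosome 2, 170715351 to 170718078), was at 0.366 and 0 CPM in mTeSR1 and at 355 and 287 CPM after WNT3A. Both treated libraries lay far above both untreated ones, with a log2 change of 10.71 (SE 0.77, FDR 0.00056). That size is uncertain because of the 0 in mTeSR1. Its relative SP8 went from 4.03 and 3.12 to 84.5 and 54.6 CPM (4.26, SE 0.39, FDR 0.0014). AXIN2, the scaffold of the destruction complex and a feedback inhibitor, was at 39.3 and 31.8 CPM and then at 211 and 168 CPM (log2 change 2.42, SE 0.31, FDR 0.0051). The rise was thus smaller than for SP5 but started from a clear level. Of the other inhibitors, NKD1, which acts on Dishevelled, rose by 3.23, and RNF43, a ubiquitin ligase that removes Frizzled receptors, rose by 4.00. APCDD1, a membrane inhibitor, rose by 3.81.

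Both TCF family genes on this list also rose. LEF1, a partner of β-catenin on DNA, was at 1.05 and 0.113 CPM in mTeSR1 and at 50.1 and 22.7 CPM after WNT3A (log2 change 6.02, SE 1.18, FDR 0.031), and TCF7 went from 12.8 and 14.3 to 53.9 and 36.7 CPM. CCND1, which encodes cyclin D1, was already at 158 and 210 CPM and reached 474 and 477 CPM (1.38, FDR 0.0035). The treated libraries lay above the untreated ones for each of these 3 genes. Members that did not pass include MYC, at 86 and 82.6 CPM and then at 69.1 and 119 CPM, where the groups overlap, and the secreted inhibitor DKK4, which was at 0 counts in mTeSR1 and at 1.93 and 1.04 CPM after WNT3A, at least 9.07-fold higher (FDR 0.059). LGR5, a receptor for R-spondins, was too low to be tested. Without the block 8 of the 17 rose, with LEF1 and TNFRSF19 lost (FDR 0.062 and 0.051). The length offset brought in a member that the main fit did not call. With the length offset 9 rose, with LEF1 and NKD1 lost (FDR 0.098 and 0.076), and without the mTeSR1 library of repeat 2, 3 rose.

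**Figure D2:**
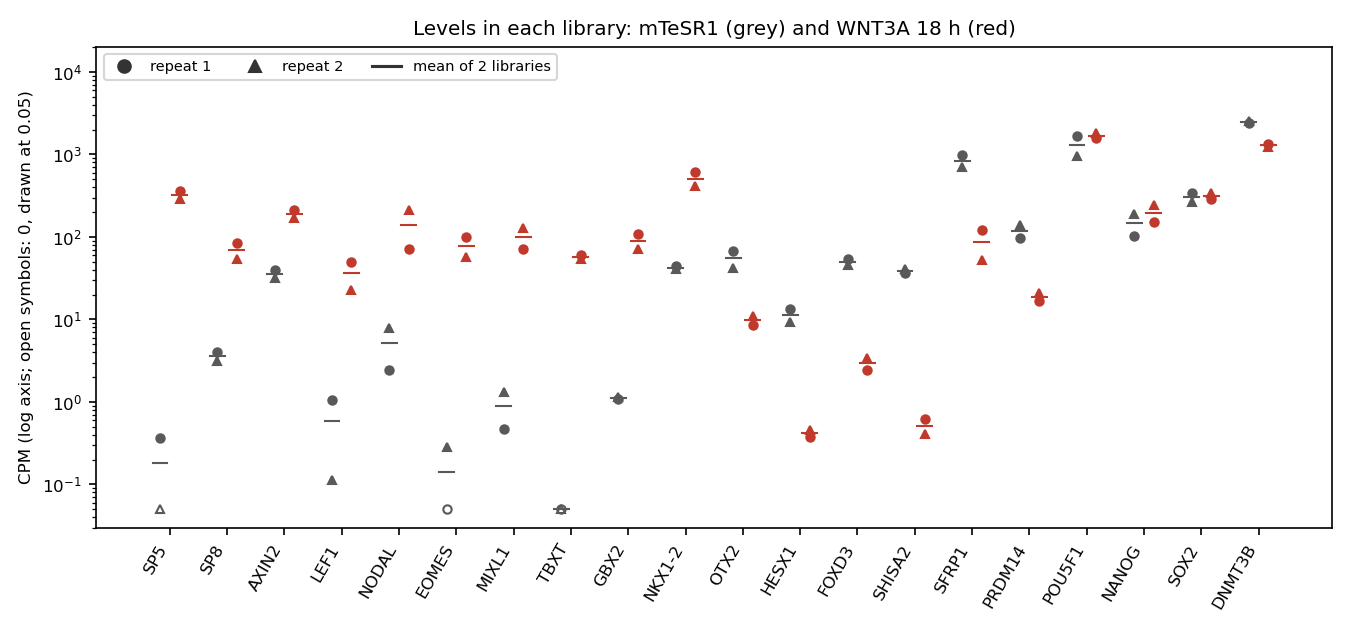
CPM on a log axis of 20 genes in the mTeSR1 (grey) and WNT3A 18 h (red) libraries, with circles for repeat 1, triangles for repeat 2 and a bar for the mean. Open symbols are 0 counts and are drawn at the foot of the axis. SP5, EOMES and NODAL sit higher in both WNT3A libraries than in both mTeSR1 libraries, SHISA2, FOXD3 and SFRP1 sit lower, and the groups overlap for POU5F1, NANOG and SOX2.

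Ligands, receptors and secreted modulators of the pathway moved in both directions. Of 35 tested, 7 rose and 5 fell (median log2 change 0.08). Among the ligands, WNT3 rose from 0.785 and 1.19 to 7.58 and 14.3 CPM (3.43, SE 0.25, FDR 0.00056), and WNT5B, a ligand mostly of the non-canonical branch, rose from 1.73 and 0.908 to 144 and 84.1 CPM (6.44, FDR 0.010). WNT8A had 0 counts in mTeSR1 and was at 3.86 and 5.53 CPM after WNT3A, at least 28.7-fold higher (FDR 0.0090). WLS, the carrier that WNT proteins need for secretion, rose from 1.88 and 0.794 to 106 and 57.2 CPM (5.94, FDR 0.012). So 3 ligand genes and the gene for their carrier rose together.

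The Frizzled receptor genes changed in opposite directions. FZD10 rose from 0.314 and 0.284 to 9.75 and 5.99 CPM (4.68, FDR 0.0062) and FZD1 rose by 2.71, while FZD8 fell from 24 and 10.6 to 2.87 and 0.921 CPM (-3.20, FDR 0.0018). FZD5 fell from 125 and 239 to 27 and 55.8 CPM (-2.15, FDR 0.032), and FZD7, at 482 and 605 CPM in mTeSR1, fell to 286 and 319 CPM (-0.84, FDR 0.038). In none of these receptors did the groups overlap. The non-canonical receptor gene ROR2 rose from 5.65 and 8.17 to 60 and 28.6 CPM (2.62). Without the block FZD1, FZD5 and FZD7 were not called (FDR 0.10, 0.15 and 0.093).

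The largest fall of all named genes was in SHISA2, which encodes an endoplasmic reticulum protein that holds back Frizzled and FGF receptors. It was at 36.9 and 40.4 CPM in mTeSR1 and at 0.612 and 0.403 CPM after WNT3A (log2 change -6.25, SE 0.59, FDR 0.0014). SFRP1, which encodes a secreted protein that binds WNTs, was at 981 and 693 CPM in mTeSR1 and at 122 and 52.4 CPM after WNT3A (-3.35, SE 0.29, FDR 0.0013). For both genes the treated libraries lay far below the untreated ones.

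Of 20 tested genes for β-catenin, its destruction complex and TCF co-factors, 0 rose and 3 fell (median -0.15). TCF7L1, the TCF family member known mainly as a repressor in pluripotent cells, fell from 280 and 311 to 77.7 and 105 CPM (-1.71, SE 0.25, FDR 0.0082). The co-repressor gene TLE2 fell by 1.78 on the log2 scale and the co-activator gene BCL9L by 0.63 on the log2 scale. CTNNB1, which encodes β-catenin itself, was at 484 and 582 CPM and then at 485 and 415 CPM (FDR 0.54). BCL9L was not called without the block (FDR 0.11).

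The list of the primitive streak had 16 tested genes, of which 9 rose and 0 fell, with a median log2 change of 3.87, and SP5 is among the 9. Members near 0 counts in mTeSR1 were tested only through groups where they were high, which favours rises. EOMES, a T-box factor of the streak and of endoderm (chromosome 3, 27715949 to 27722711), was at 0 and 0.284 CPM in mTeSR1 and at 99.1 and 57 CPM after WNT3A (9.08, SE 1.29, FDR 0.0095). The size is uncertain, since it was 13.93 without the mTeSR1 library of repeat 2 and 7.59 without that of repeat 1, and the FDR was 0.079 to 0.20 with any of the 4 libraries left out. MIXL1, a homeobox factor of the streak (chromosome 1, 226223618 to 226227054), went from 0.471 and 1.3 to 71.4 and 127 CPM (6.85, SE 1.30, FDR 0.039). Both genes thus went from 1.3 CPM or less to at least 57 CPM in both repeats. NODAL, the ligand that patterns the streak, rose from 2.46 and 7.94 to 70.5 and 210 CPM (4.74, SE 0.30, FDR 0.00039). The libraries of repeat 2 were the higher ones in both groups, and the groups do not overlap. FOXA2, an endoderm and axial mesoderm factor, went from 0.209 and 0.511 to 4.33 and 6.62 CPM (3.91, FDR 0.0090). FGF8, a ligand needed for cells to leave the streak, rose from 0.785 and 2.16 to 6.59 and 42.8 CPM (3.83, FDR 0.0095). GATA4, an endoderm factor, had 2 counts in mTeSR1 and was at 1.22 and 3.4 CPM after WNT3A, a ratio of 40.5 (95% counting interval 10.9 to 339). It passed with an FDR of 0.0091. GDF3, a relative of NODAL, rose by 1.44.

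TBXT, the Brachyury gene and the best known streak marker, had 0 counts in both mTeSR1 libraries and was at 60.7 and 54.6 CPM after WNT3A, at least 352-fold higher. Its FDR was 0.061 with the block and 0.023 without it, so the call depended on that choice. The shared estimate of spread also drew on the CHIR99021 18 h libraries, which differed widely in TBXT. Members that did not pass also include the NODAL inhibitor genes LEFTY1 (8.58 and 21.7 CPM, then 1.08 and 20.4 CPM, FDR 0.56) and LEFTY2 (FDR 0.25). GSC, the organiser gene, was too low to be tested, at 0 counts in mTeSR1 and 6 and 32 counts after WNT3A. Without the block 7 of the 16 rose, with FGF8, GATA4 and GDF3 lost (FDR 0.069, 0.070 and 0.14) and TBXT gained. With the length offset 8 rose, with MIXL1 lost (FDR 0.085), and without the mTeSR1 library of repeat 2, 3 rose.

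Of 11 tested genes of caudal and axial patterning, 4 rose and 0 fell, with a median log2 change of 6.31, or 3.87 with the genes at 0 counts set at their bounds. The list has 19 genes, and the rest were too low to be tested. Members near 0 counts in mTeSR1 were tested only through groups where they were high, which favours rises and a large median. HOXB1, an early HOX gene, had 0 counts in mTeSR1 and was at 2.31 and 2.48 CPM after WNT3A (at least 14.6-fold higher, FDR 0.0092). NKX1-2, a factor of the caudal epiblast, was already at 43.9 and 40.6 CPM and reached 607 and 408 CPM (3.56, SE 0.31, FDR 0.0013). GBX2, a homeobox factor that marks the hindbrain side of the midbrain-hindbrain boundary, rose from 1.1 and 1.13 to 109 and 71.3 CPM (6.31, SE 0.85, FDR 0.0075). The treated libraries lay above the untreated ones for each of these 3 genes. Without the block 4 of the 11 rose, with the length offset 3 did, and without the mTeSR1 library of repeat 2 only 1 did. CDX1 and CDX2, caudal homeobox genes that WNT induces, did not pass. CDX2 had 3 counts in mTeSR1 and was at 50.4 and 25.5 CPM after WNT3A, a ratio of 480 (95% counting interval 164 to 2330, FDR 0.084). CDX1 was at 0.105 and 0 CPM and then at 24.7 and 14.3 CPM, a ratio of 368 (102 to 3047, FDR 0.057). EVX1, another posterior homeobox gene, was at 0.0523 and 0 CPM and then at 64 and 18.4 CPM, from 1 count to 1680 counts (FDR 0.13).

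In the nascent and paraxial mesoderm list, 2 of 12 tested genes rose and 1 fell (median 1.08). CDH11, a mesenchymal cadherin gene, rose from 7.95 and 10.8 to 28.7 and 36.8 CPM, and MSX2, a BMP-responsive homeobox gene, reached 1.08 and 0.806 CPM from 1 count in mTeSR1, a ratio of 35.2 (95% counting interval 5.94 to 1428, FDR 0.028, lost without the block at 0.088). PDGFRA, a receptor gene of paraxial mesoderm, fell from 3.92 and 4.82 to 0.895 and 0.863 CPM (-2.28, FDR 0.015). The segmentation genes MESP1 and MESP2 were too low to be tested and MSGN1 had 0 counts in all 4 libraries. In the list of 6 tested endoderm genes only FOXA2 and GATA4, given above, rose (median 1.19), and SOX17, the defining endoderm factor, had 0 counts in all 4 libraries.

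The core pluripotency genes POU5F1, SOX2 and NANOG were not called. POU5F1, which encodes OCT4, was at 1656 and 951 CPM in mTeSR1 and at 1582 and 1790 CPM after WNT3A (FDR 0.48). SOX2 was at 342 and 265 CPM and then at 288 and 340 CPM (FDR 0.87), and NANOG was at 103 and 189 CPM and then at 153 and 240 CPM (FDR 0.12). The groups overlapped in all 3 genes. With the length offset NANOG passed (FDR 0.027). Of the 24 tested pluripotency genes 3 rose and 6 fell (median -0.26).

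Those that fell include regulators of the undifferentiated state. FOXD3, a forkhead factor gene active in epiblast and neural crest, was at 54 and 45.6 CPM in mTeSR1 and at 2.45 and 3.4 CPM after WNT3A (-4.09, SE 0.40, FDR 0.0017). PRDM14, a repressor of differentiation genes, fell from 96.2 and 139 to 16.6 and 20.8 CPM (-2.63, FDR 0.028). DNMT3B, the de novo DNA methyltransferase gene, fell from 2431 and 2570 to 1354 and 1211 CPM (-0.96, FDR 0.039). In each of these the groups were well apart. UTF1, a chromatin-bound factor gene, fell by 2.66 on the log2 scale and TERF1, which encodes a telomere-binding protein, by 1.38 on the log2 scale. Members that rose include KLF5 (1.2 and 1.47 to 7.72 and 8.75 CPM, FDR 0.0024) and KLF4 (1.62 and 1.53 to 3.34 and 5.76 CPM, FDR 0.039), both Krüppel-like factors of the naive state. Without the block 2 rose and 3 fell, with PRDM14, DNMT3B, TERF1 and KLF4 lost at FDR values of 0.050 to 0.079.

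Of 17 tested genes of anterior and neural patterning, 0 rose and 5 fell (median -0.63). The median was -1.17 in repeat 1 and near 0 in repeat 2. HESX1, a homeobox repressor of the anterior neural plate, was at 13.5 and 9.19 CPM in mTeSR1 and at 0.377 and 0.461 CPM after WNT3A (-4.74, SE 0.48, FDR 0.0019). OTX2, a homeobox factor of epiblast and forebrain, fell from 67.8 and 42.2 to 8.52 and 11.1 CPM (-2.47, SE 0.37, FDR 0.0087), and POU3F1 fell from 63.4 and 41.6 to 8.95 and 8.81 CPM (-2.53, FDR 0.0050). All of these fell in both repeats. FEZF1, a forebrain zinc finger gene, fell by 1.99 on the log2 scale. SIX3 was at 10.6 and 0 CPM and then at 0.942 and 0 CPM, so its call (FDR 0.048) came from repeat 1 alone. Without the block FEZF1 and SIX3 were not called (FDR 0.082 and 0.65).

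**Figure D3:**
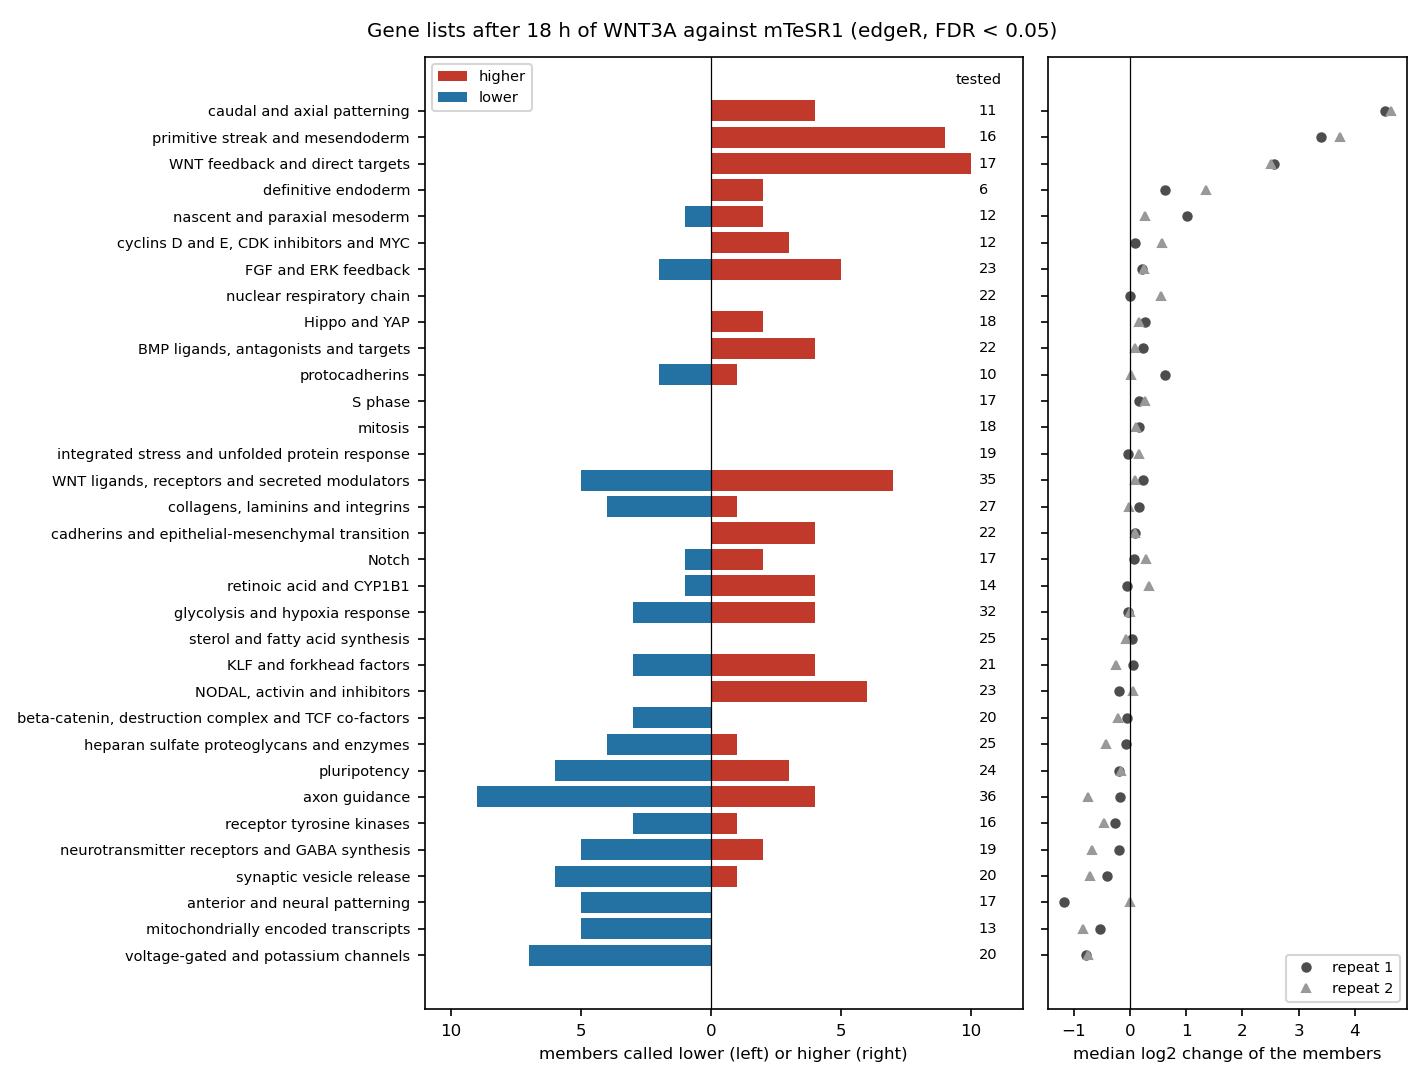
For each pathway list, the left panel gives the members that fell (bars to the left) or rose (bars to the right) with WNT3A for 18 h and the number tested, and the right panel gives the median log2 change of its tested members in repeat 1 (circles) and repeat 2 (triangles), computed with a prior count of 2. The caudal (4.54 and 4.64), streak (3.40 and 3.74) and WNT feedback (2.56 and 2.51) lists stand to the right in both repeats, and the channel list (-0.79 and -0.76) to the left.

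Of 23 tested genes of NODAL and activin signalling 6 rose and 0 fell (median -0.08), among them NODAL, GDF3 and FST. FST, which encodes the secreted activin antagonist follistatin, was at 12.5 and 7.43 CPM in mTeSR1 and at 466 and 301 CPM after WNT3A (5.27, SE 0.39, FDR 0.00056). The signal transducer SMAD3 rose by 0.87 and its DNA-binding partner FOXH1 by 1.09. Ligand, transducer and antagonist genes thus rose in the same libraries. Without the block 3 of the 23 rose, and GDF3 and FOXH1 were among those not called (FDR 0.14 and 0.067).

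Of 22 tested genes of BMP signalling 4 rose and 0 fell (median 0.18). The ligand gene BMP4 rose from 1.67 and 1.3 to 5.89 and 6.5 CPM (2.07, FDR 0.0089). ID2, a target that blocks differentiation factors, rose from 10.1 and 9.02 to 64.4 and 62.2 CPM (2.73, FDR 0.0067), and ID3 rose by 1.01. ID3 and MSX2 were lost without the block (FDR 0.30 and 0.088).

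In the FGF list 5 of 23 tested genes rose and 2 fell (median 0.30). The ligand genes FGF8, FGF18 (0.889 and 0.284 to 14.8 and 13.3 CPM, FDR 0.0042) and FGF19 (9.99 and 14.9 to 28.2 and 40.7 CPM, FDR 0.0047) rose. Among the readouts of ERK activity, DUSP5 and SPRED2 rose by 0.81 and 0.76 while DUSP6 and ETV5 fell by 1.05 and 0.99 on the log2 scale. Only FGF18 and FGF19 kept their calls without the block, where the FDR of the others was 0.069 to 0.35. In the Notch list 2 of 17 rose, the ligand gene JAG1 (0.72) and the target HEY2 (0.84), and 1 fell, LFNG, a modifier of the receptor (-1.74). These 3 were lost without the block (FDR 0.093 to 0.22). In the Hippo list 2 of 18 rose and 0 fell. AMOTL2, which holds YAP at cell junctions, went from 57.8 and 49.3 to 159 and 158 CPM (1.57, FDR 0.0028), and YAP1 rose by 0.46, a call lost without the block (FDR 0.15). With the length offset 6 of the 18 rose.

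Of 14 tested genes of retinoic acid handling, 4 rose and 1 fell. The carrier gene CRABP2 rose from 63.4 and 33.3 to 263 and 183 CPM (2.25, FDR 0.010), and STRA6, the uptake receptor gene, rose by 1.36. CYP1B1, a cytochrome P450 gene, went from 0.941 and 1.3 to 10.5 and 11.2 CPM (3.27, FDR 0.0040). DHRS3, which turns retinal back to retinol, fell by 0.84 on the log2 scale. Without the block CRABP2 and DHRS3 were not called (FDR 0.064 and 0.10).

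Of 22 tested genes of cadherins and of epithelial-mesenchymal transition, 4 rose and 0 fell (median 0.07), beside 4.92% of all tested genes that changed. CDH2, the N-cadherin gene, rose from 48.2 and 46.6 to 103 and 89 CPM (1.02, FDR 0.036), and the transition factor gene ZEB2 and the gelatinase gene MMP2 rose by 3.68 and 0.78. CDH11 is the fourth. CDH2, ZEB2 and MMP2 were not called without the block (FDR 0.066, 0.23 and 0.083). Of 10 tested protocadherin genes, PCDH10 rose from 2.77 and 4.82 to 15.4 and 18.4 CPM, while PCDH1 fell from 410 and 587 to 226 and 198 CPM and PCDH7 fell by 1.83 on the log2 scale (not called without the block, FDR 0.12). Of 27 collagen, laminin and integrin genes 1 rose and 4 fell, with 1 and 1 left without the block. COL1A2 rose from 67.5 and 99.8 to 165 and 166 CPM while COL1A1, the partner chain of type I collagen, fell from 157 and 188 to 89.6 and 78.2 CPM. The 2 chains of the same collagen thus moved apart in both repeats. Of 25 heparan sulfate genes 1 rose and 4 fell, and without the block only the epimerase gene GLCE (-1.27) was left.

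Among genes best known from neurons, 1 of 20 tested genes of synaptic vesicle release rose and 6 fell (median -0.55), with 0 and 4 left without the block. SEZ6 was at 9.83 and 13.6 CPM in mTeSR1 and at 0.659 and 0.748 CPM after WNT3A (-4.03, SE 0.24, FDR 0.00033), and CPLX2, a complexin gene, fell from 4.66 and 4.25 to 0.424 and 0.633 CPM (-3.08, FDR 0.0035). Of 20 voltage-gated and potassium channel genes, 0 rose and 7 fell (median -0.73). The potassium channel gene KCNK12 fell from 13.9 and 16.1 to 5.79 and 6.27 CPM (-1.31, FDR 0.017), and the calcium channel gene CACNA1A fell from 27.3 and 22.6 to 15.2 and 9.96 CPM (FDR 0.015). Both were lost without the block (FDR 0.062 and 0.059), which left 1 of the 7 channel calls. Of 19 genes for neurotransmitter receptors and GABA synthesis, 2 rose and 5 fell. GAD1, which makes GABA from glutamate, went the other way from the receptors, from 1.15 and 0.227 to 80.7 and 67.1 CPM (6.78, SE 0.85, FDR 0.0051). SLC6A7, a proline transporter gene, had 0 counts in mTeSR1 and was at 2.21 and 1.27 CPM (at least 10.6-fold higher, FDR 0.026). GRIK2, a glutamate receptor gene, fell from 1.73 and 1.64 to 0.141 and 0.115 CPM (-3.64, FDR 0.026).

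In the axon guidance list 4 of 36 tested genes rose and 9 fell (median -0.44). SEMA3C, a secreted semaphorin gene, was at 0.0523 and 0.397 CPM in mTeSR1 and at 27.3 and 34.7 CPM after WNT3A (7.17, SE 0.52, FDR 0.00056). The ligand genes SLIT2 (9.78 and 11.2 to 77.1 and 39.5 CPM), EFNB2 (30.1 and 22.3 to 103 and 77.9 CPM) and NTN1 (6.28 and 4.37 to 22.1 and 13.6 CPM) also rose. Receptors were among those that fell. UNC5B, a netrin receptor gene, fell from 142 and 150 to 26.1 and 22.4 CPM (-2.59, FDR 0.0040), and UNC5A, UNC5C, the SLIT receptor gene ROBO2, EPHB1 and NRP2 fell by 1.13 to 2.41 on the log2 scale. The 4 genes that rose encode secreted or membrane ligands, and 6 of the 9 that fell encode receptors. The others of the 9 are semaphorin genes, SEMA4A among them, of the same family as SEMA3C, so the split is not a clean one. Without the block 3 rose and 5 fell.

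Of 16 tested receptor tyrosine kinase genes 1 rose and 3 fell (median -0.46). ALK went from 0.418 and 0.397 to 13.1 and 7.83 CPM (4.65, SE 0.36, FDR 0.00073), and ERBB2, at 1070 and 971 CPM in mTeSR1, fell to 499 and 387 CPM (-1.21, FDR 0.0089). MET and FLT1 fell by 1.84 and 1.23 on the log2 scale, calls lost without the block (FDR 0.12 and 0.10). In the list of Krüppel-like and forkhead factors 4 of 21 rose and 3 fell. FOXB1, a forkhead factor of the neural tube, had the lowest FDR of the named genes and went from 1.67 and 2.04 to 95.7 and 99.2 CPM (5.72, SE 0.19, FDR 9.8e-06). The repeats differed little in either group.

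The largest rises and falls by rule hold 8 further genes. TTC29, a gene of motile cilia, had 0 counts in mTeSR1 and was at 17.7 and 8.92 CPM (at least 81.3-fold higher, FDR 0.042, lost without the block). TMEM132C rose from 0.523 and 0.794 to 60.8 and 21 CPM. SORBS2, which encodes an adaptor of the cytoskeleton, fell from 32 and 23.9 to 1.88 and 1.15 CPM (-4.20, FDR 0.0027). DGKK, a diacylglycerol kinase gene, fell from 42.8 and 60.4 to 3.81 and 2.01 CPM (-4.08, FDR 0.0068). PDE3A, a phosphodiesterase gene, fell from 9.73 and 14.2 to 1.46 and 0.863 CPM. TMEM26, MAP6 and HECW1, from 4.29 to 15.9 CPM in mTeSR1, were at 0.115 to 2.07 CPM after WNT3A. The MAP6 call was lost without the block (FDR 0.17), and its log2 change was -5.58 without the WNT3A library of repeat 1 and -2.27 without that of repeat 2. In every one of these genes both treated libraries lay on the same side of both untreated ones. The rule had picked genes that were called and moved alike in both repeats, and the same held for 740 of all 751 called genes.

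In edgeR no gene passed among 17 of S phase, 18 of mitosis, 25 of sterol and fatty acid synthesis, 19 of the stress responses, 22 of the nuclear-encoded respiratory chain and 13 p53 targets, with list medians of -0.03 to 0.29. At an unadjusted p under 0.05 there were 5, 5, 2, 3, 2 and 1 genes in these lists, and DESeq2 called 1 mitosis gene. With the length offset 1 S phase gene rose and 1 stress gene fell. Among 12 tested cyclins, CDK inhibitors and MYC genes, CCND1, CCND2 and MYCL rose (1.38, 1.05 and 1.83), with CCND2 lost without the block (FDR 0.083). Of 32 genes of glycolysis and the hypoxia response 4 rose and 3 fell (median 0.03). PDK1, a pyruvate dehydrogenase kinase gene, rose from 12.6 and 12.4 to 51 and 66.1 CPM (2.21, SE 0.19, FDR 0.0012). The glucose transporter gene SLC2A3 rose from 484 and 487 to 1072 and 882 CPM, while the phosphofructokinase gene PFKP fell from 185 and 190 to 87.5 and 88.3 CPM. These 3 kept their calls without the block, while SLC2A1, ADM and EGLN3 did not (FDR 0.10, 0.26 and 0.057). Of 13 mitochondrially encoded genes 5 fell, by 0.70 to 0.82 on the log2 scale, and 0 rose. MT-CO1 was at 12466 and 21176 CPM in mTeSR1 and at 8545 and 11856 CPM after WNT3A (FDR 0.027). All mitochondrial transcripts together took 3.94% and 6.73% of counts in mTeSR1 and 2.70% and 4.10% after WNT3A, so the groups overlap and the fall is within each repeat. Without the block none of the 5 passed (FDR 0.20 to 0.39).

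Markers of other cell types were read against the 4.92% of all tested genes that changed. Of 7 tested trophoblast and amnion markers 1 rose (TFAP2C, 1.29) and 2 fell (KRT7 and GABRP), and their summed level was 600 and 745 CPM in mTeSR1 and 778 and 781 CPM after WNT3A. The trophoblast factors GATA2, GATA3 and TFAP2A were too low to be tested. Of 7 neural crest markers 0 rose and 2 fell, FOXD3 and NGFR, with sums of 129 and 148 CPM and then 62.8 and 54.9 CPM. Of 9 fibroblast markers 1 rose and 3 fell (640 and 732 CPM, then 513 and 529 CPM), and DCN and FAP had 0 counts in all 4 libraries. Of 7 neuron markers MAP2 and RBFOX3 fell (391 and 309 CPM, then 282 and 240 CPM) and NEUROG1 had 0 counts. Of 6 endothelial and blood markers and 3 cardiac markers none passed in edgeR or DESeq2 (2 and 0 at an unadjusted p under 0.05), with sums of 149 and 286 CPM and then 270 and 324 CPM, and of 23.1 and 27.7 CPM and then 25.8 and 33.7 CPM. Among 5 germ cell markers TFAP2C rose (35.4 and 53.4 CPM, then 41.2 and 58.9 CPM). Of 14 immediate early and heat shock genes IER3 rose and JUN fell (607 and 587 CPM, then 660 and 627 CPM). Without the block the fibroblast calls, FOXD3 and IER3 were left among these markers, and the 7 other calls were lost. The part of such cells or of RNA quality in the results was not tested.

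The response at 18 h was compared with that at 6 h of the same dose. At 18 h 87 genes were higher (0.570%) and 192 lower (1.26%) than at 6 h. The WNT3A 6 h library of repeat 2 stood apart in the same way as the mTeSR1 library of that repeat. Across genes, its deviation from the mean level had a Spearman correlation with transcript length of 0.448. In the 6 h library of repeat 1 this correlation was -0.135. A total of 578 genes passed with the length offset. Without the block 22 genes passed, without the WNT3A 6 h library of repeat 2 only 1 did and without that of repeat 1, 467 did, and leaving out the 18 h library of repeat 1 or 2 left 65 or 10. SFRP1 was at 764 and 662 CPM at 6 h, much nearer to its untreated than to its 18 h levels, and the log2 difference from 6 h to 18 h was -3.15. SEZ6, at 8.54 and 10.1 CPM at 6 h, and FZD8, at 19.2 and 8.6 CPM, showed the same course. SHISA2 was already at 4.2 and 4.24 CPM at 6 h and fell further (-3.05), and HESX1, at 4.29 and 4.4 CPM at 6 h, did so too (-3.38). The Groucho co-repressor gene TLE3 was higher at 6 h than at either other point, with 76.3 and 81.8 CPM in mTeSR1, 381 and 458 CPM at 6 h and 138 and 103 CPM at 18 h. NEDD9, a focal adhesion scaffold gene, had the same order, with 4.39 and 6.18 CPM, then 31 and 32.3 CPM, then 9.28 and 7.77 CPM.

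Genes higher at 18 h than at 6 h include PCDH10, which was at 0.708 and 1.22 CPM at 6 h, below its mTeSR1 level, and rose to its 18 h level with a difference of 4.15. GDF3 was at 5.19 and 9.35 CPM at 6 h and CYP1B1 at 1.37 and 0.825 CPM, with differences of 2.04 and 3.31. CPT1A, the gate enzyme of fatty acid oxidation, was at 5.8 and 9.35 CPM at 6 h (difference 1.68). FGF13, an intracellular FGF relative, was at 13.9 and 17.9 CPM at 6 h (1.21). AL513523.9 and PPIAP46, also named by rule, are uncertain, since AL513523.9 lies off the primary assembly and had 0 counts at 6 h, and PPIAP46 is a pseudogene copy. For AXIN2 the 18 h minus 6 h difference was -0.19 on the log2 scale (95% interval -0.85 to 0.47, FDR 0.72).

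**Figure D4:**
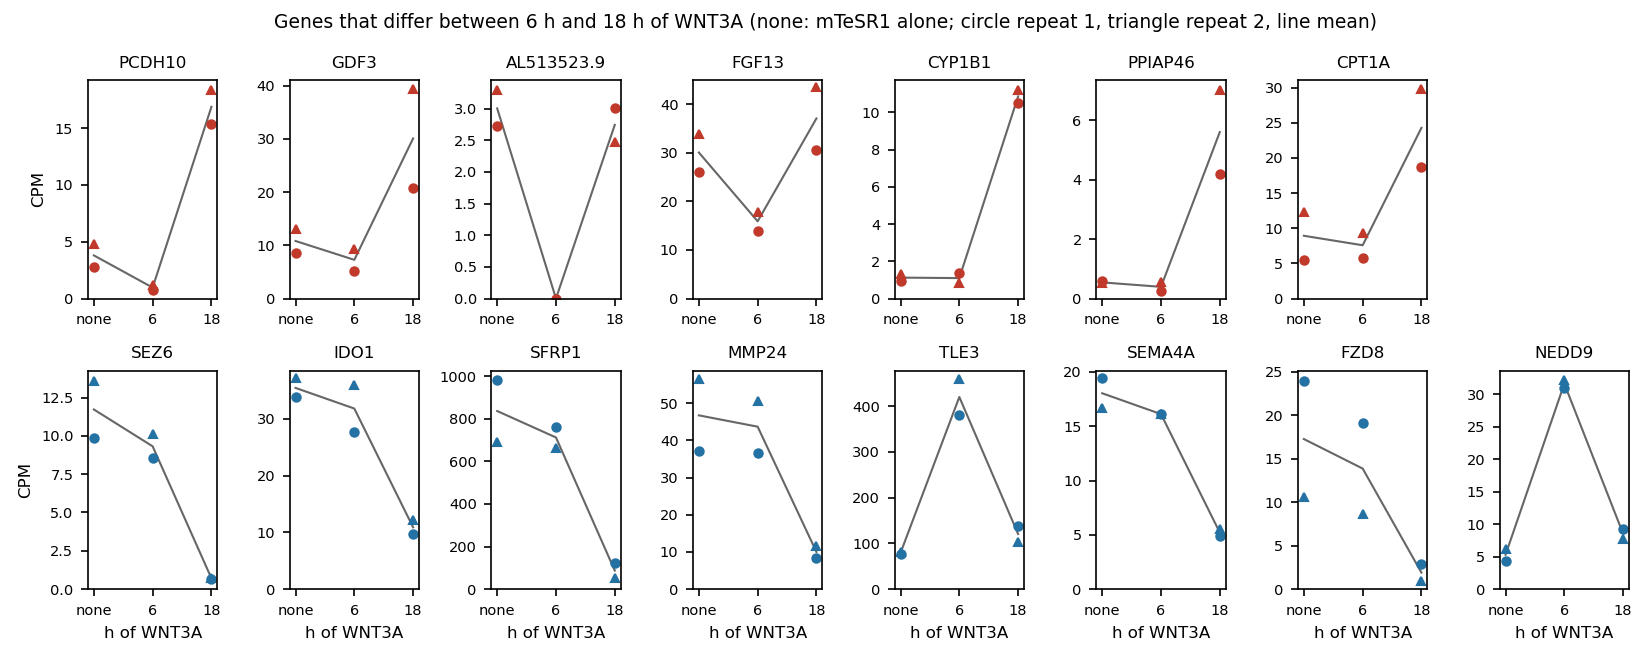
CPM on linear axes in mTeSR1 (none) and after 6 h and 18 h of WNT3A, for genes named by rule for a small p between 6 h and 18 h (red higher at 18 h, blue lower), with circles for repeat 1, triangles for repeat 2 and a line through the means. SFRP1 and SEZ6 are much lower at 18 h than at 6 h, TLE3 and NEDD9 are highest at 6 h, and PCDH10 and CYP1B1 are highest at 18 h.

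WNT3A and CHIR99021 at 18 h were set side by side to ask whether the ligand and the GSK3 inhibitor left the cells alike. Of 15251 genes 0 passed (0.00%) in edgeR, with a smallest FDR of 0.56, 629 genes at an unadjusted p under 0.05, and 9 calls in DESeq2. That count does not show the treatments to act alike, since the intervals are wide. The difference, WNT3A minus CHIR99021, was 0.11 on the log2 scale for SP5 (95% interval -0.91 to 1.13), -0.09 for AXIN2 (-0.79 to 0.61) and 0.07 for FOXB1 (-0.29 to 0.43). For streak genes the intervals were wider, with 0.43 for EOMES (-1.36 to 2.22) and 1.02 for TBXT (-1.78 to 3.81). The 2 CHIR99021 libraries differed widely in such genes. TBXT was at 3.52 and 49.2 CPM in them, EOMES at 11.2 and 74.8 CPM and CDX2 at 0.955 and 41.4 CPM. Intervals that exclude 0 without passing the adjustment were found for GDF3 (1.44, 1.02 to 1.87), PCDH10 (1.75, 1.01 to 2.49), CYP1B1 (1.88, 1.03 to 2.74), SFRP1 (-1.14, -1.81 to -0.48) and FZD8 (-1.61, -2.43 to -0.80), and these genes were singled out after their values were seen. Without the CHIR99021 library numbered 2 here, 6 genes passed.

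**Figure D5:**
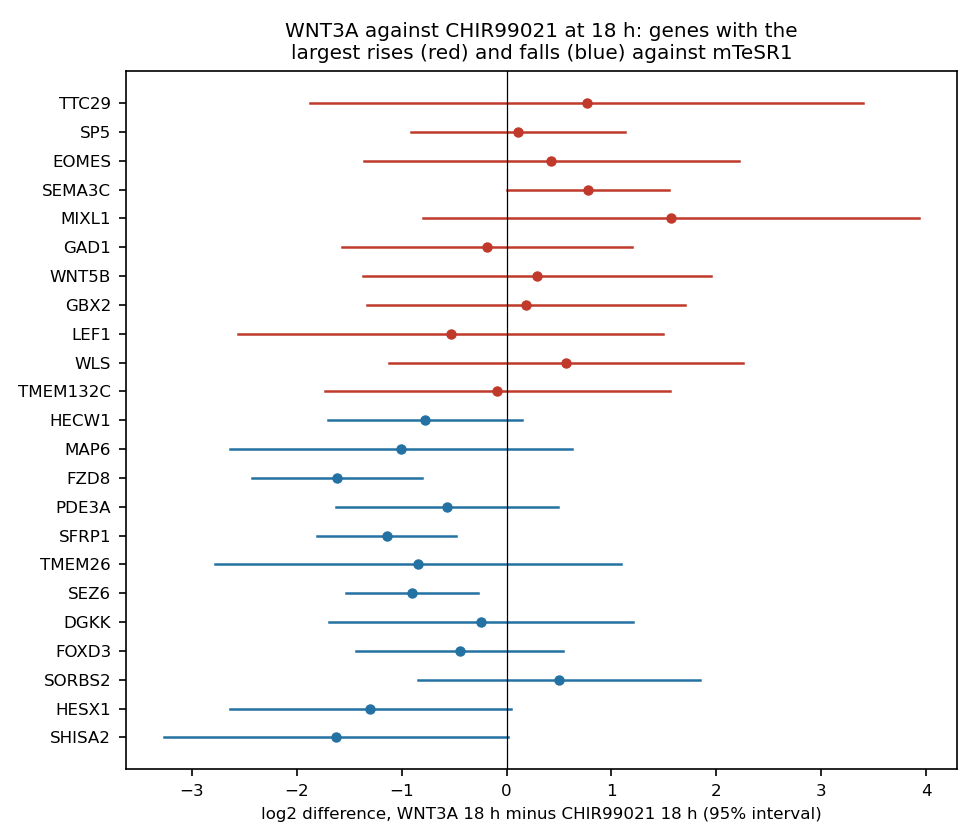
Difference between WNT3A and CHIR99021 at 18 h on the log2 scale (point) with its 95% interval (line), for genes named among the largest rises (red) and falls (blue) against mTeSR1. The intervals of SP5, EOMES and LEF1 include 0 and those of SFRP1, FZD8 and SEZ6 lie below 0, with 0 genes past the adjusted threshold.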

How the data were processed

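The authors deposited a table of estimated counts by gene and library, made with Salmon 1.8.0 on human build GRCh38, per the submitters' processing notes. The transcript set, strand setting and filters were not given in the sources used here. Rows that shared a symbol were summed, which gave 35940 symbols from 37951 identifiers, and the sums were rounded to whole numbers. Of 1034 symbols with several identifiers 530 were tested and 24 called. Coordinates are from GENCODE release 29.

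All 10 libraries entered 1 fit in edgeR 4.0.16 (R 4.3.3), with trimmed-mean scaling (TMM), robust quasi-likelihood estimation, low genes removed at a minimum count of 10 (total 15). Biological repeat was the block, since the series' design text describes a second repeat. In a check, deviations from the group means of same-numbered libraries correlated at 0.261 to 0.595 over 6 pairs of groups. The value was 0.263 for mTeSR1 and WNT3A 18 h. The highest was for mTeSR1 and WNT3A 6 h, whose repeat 2 libraries shared the relation to transcript length. The part of that relation in these values was not tested. FDR is the Benjamini-Hochberg adjusted p over 15251 genes. SE is the absolute log2 change over the square root of the test's F statistic, and 95% intervals on log2 differences use it. For genes near 0 counts in a group it does not measure the uncertainty of the fold. P-values measure only the spread between these libraries. Counting intervals (95%) and floors (3 counts) cover counting error only. Replicates differed by more than sampling noise, with a chi-square per degree of freedom of 13.1 to 109. Library totals were 1.66e+07 to 2.67e+07. DESeq2 1.42.0, other scaling, filters, a length offset, other sample sets, each identifier on its own and left-out libraries were tried as alternatives.

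Genes were named by rule: the 12 largest rises and falls that moved alike in both repeats and reached a mean of 5 CPM, called members of the 42 gene lists, up to 4 uncalled members per list, and the 8 smallest p-values per direction against WNT3A 6 h and CHIR99021 18 h. Some genes that this rule names are not reported here by name. The comparison, members and lists were chosen with earlier results of these data known.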

Additional observations from a re-analysis of the deposited data

Results flagged for a closer look

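For 20 named genes the effect of WNT3A against mTeSR1 differed between 18 h and 6 h, by the edgeR test of the difference itself. The naming rule took in genes for their small p in this same test. For genes named that way, passing is a result of the selection and not separate support. Of all 15251 tested genes 279 (1.83%) passed this test. Differences are log2 levels at 18 h minus 6 h. Higher at 18 h were AL513523.9 (8.73), PCDH10 (4.15), PPIAP46 (3.82), CYP1B1 (3.31), GDF3 (2.04), CPT1A (1.68) and FGF13 (1.21). Lower at 18 h were the SEZ6 (-3.71), HESX1 (-3.38), SFRP1 (-3.15), SHISA2 (-3.05), FZD8 (-2.89), SORBS2 (-2.85), PDE3A (-2.59), HECW1 (-2.13), MMP24 (-2.13), NEDD9 (-1.89), TLE3 (-1.81), SEMA4A (-1.63) and IDO1 (-1.54) genes. The untreated libraries are shared by both effects. AL513523.9 had 0 counts at 6 h in both libraries, so its difference is not a measured fold.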

How the results depend on the processing

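For WNT3A 18 h against mTeSR1 (751 genes), no replicate block gave 320, the 4 libraries alone 1321 with and 345 without the block, the length offset 1151, DESeq2 1139 and an FDR under 0.01 gave 232. Leaving out 1 of the 4 compared libraries gave 80 to 358, and leaving out a WNT3A 6 h or CHIR99021 18 h library gave 794 to 805. For 18 h against 6 h (279 genes), no replicate block gave 22, no filter on low counts 479, the length offset 578, each identifier on its own 168, DESeq2 923 and an FDR under 0.01 gave 5, with 1 to 467 when 1 library was left out. For WNT3A against CHIR99021 at 18 h (0 genes), each identifier on its own gave 1, DESeq2 9 and a left-out library 0 to 6. The other settings stayed within 1.5 times. In no named gene that was called in the main fit did the direction turn under any of these alternatives. Named genes that were not called are not covered by that statement. Among named genes, 39 of 166 lost the call in at least 7 of 14 alternatives. A lone library left in a group was assumed to vary like the other groups. With 2 libraries a group and 1 cell line, genes under about 10 counts were left out and small changes in them were not detectable at this depth.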
